A study of Mus musculus with 12 samples.

Results

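The genes described are the matrix metalloproteases (Mmp), the Adamts proteases, the Adamts-like genes (Adamtsl) and the tissue inhibitors of metalloproteases (Timp). They were taken by symbol, as every probe set whose single gene symbol began with one of those 4 names followed by a digit. A gene with several probe sets was represented by its brightest, by mean over the 12 arrays. This gave 49 genes of the 22180 on the array. The low-value filter, which asked a probe set to reach its array's own 30th percentile in at least 3 arrays, was passed by 44 of the 49 and by 17860 of all genes.

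The arrays were Affymetrix mouse arrays of embryonic fibroblasts undergoing conversion towards induced pluripotent stem cells, and the series asks how the histone chaperone CAF-1 bears on that conversion. The fibroblasts came from E13.5 embryos of the C57Bl/6 -129X1/SvJ background. All groups carried the genotype Col1a1::tetOP-OKSM ; R26-M2rtTA, in which doxycycline acts through the R26 transactivator to switch on the reprogramming factors Oct4, Klf4, Sox2 and c-Myc from the Col1a1 locus. All groups were also given a retroviral hairpin, doxycycline, 15% serum and the cytokine LIF, so no group lacks the factors and none is an untreated fibroblast. The 4 groups of 3 arrays were day 3 with a hairpin against Renilla luciferase (control), day 3 with a hairpin against the CAF-1 subunit Chaf1a (knockdown), day 6 control and day 6 knockdown. Whether the 3 replicates are separate cultures or embryos is not in the labels, so a p-value measures only the spread between these arrays.

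Matrix metalloproteases are zinc enzymes that cut collagens, proteoglycans and other proteins outside the cell, and are made as inactive precursors that other proteases activate. Adamts proteases are secreted relatives with thrombospondin repeats, the Adamts-like proteins have those repeats but no protease domain, and Timp proteins block the active site of the enzymes. Fibroblasts are a main source of all these proteins in connective tissue.

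Values are log2 of the deposited RMA intensity, and the array medians lay between 5.30 and 5.44. Fibroblast identity was checked on 10 markers: 9 were above the array median on all 12 arrays, and Pdgfra, a growth factor receptor, reached it on 3. Chaf1a, the CAF-1 subunit that the sample titles name as the knockdown target, read 7.44, 7.72 and 7.42 in day 3 control, 7.35, 7.18 and 7.19 in day 3 knockdown, 7.06, 7.30 and 7.31 in day 6 control and 7.04, 7.16 and 7.11 in day 6 knockdown. The day 3 groups did not overlap and the day 6 groups did, and neither knockdown difference passed the test (-0.29, adjusted p = 0.726 at day 3; -0.12, adjusted p = 0.999 at day 6; limma, adjusted over all genes). These arrays are of whole cultures, in which fewer cells of a type and less RNA per cell cannot be told apart.

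Signal differed widely between members. Above the array median on all 12 arrays were 27 genes, another 5 reached it on some arrays (Adamts15 and Adamts20 on 11, Mmp21 on 10, Mmp25 on 8 and Mmp10 on 2), and 12 passed the filter but stayed below the median on every array. The 27 included Timp1, Timp2 and Timp3, the gelatinase Mmp2 and its membrane-bound activator Mmp14, and the proteoglycanases Adamts1, Adamts4, Adamts5 and Adamts9. The other gelatinase, Mmp9, was below the median on all 12 arrays, as were the procollagen-processing Adamts3 and the von Willebrand factor-cleaving Adamts13. Another 5 did not pass the filter and were not tested. These were Timp4, with a range of 4.02 to 4.62 over the arrays, the macrophage elastase Mmp12 at 3.77 to 4.001, and the collagenases Mmp13 at 3.30 to 4.47, Mmp1a at 3.26 to 3.56 and Mmp1b at 3.17 to 3.60.

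Of those 5 genes, 4 belong to the metalloprotease cluster of chromosome 9. In the RefSeq gene order, 10 protein-coding neighbours form that cluster: Mmp13, Mmp12, Mmp1b, Mmp3, Mmp1a, Mmp10, Mmp8, Mmp27, Mmp20 and Mmp7. They include the collagenases, which cut fibrillar collagen, the stromelysins Mmp3 and Mmp10, and the matrilysin Mmp7. Mmp10 alone reached the array median, on 2 of the 12 arrays, and 6 of the 10 passed the filter. Mmp1a and Mmp1b are close copies, so their probe sets may not tell them apart.

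**Figure D1:**
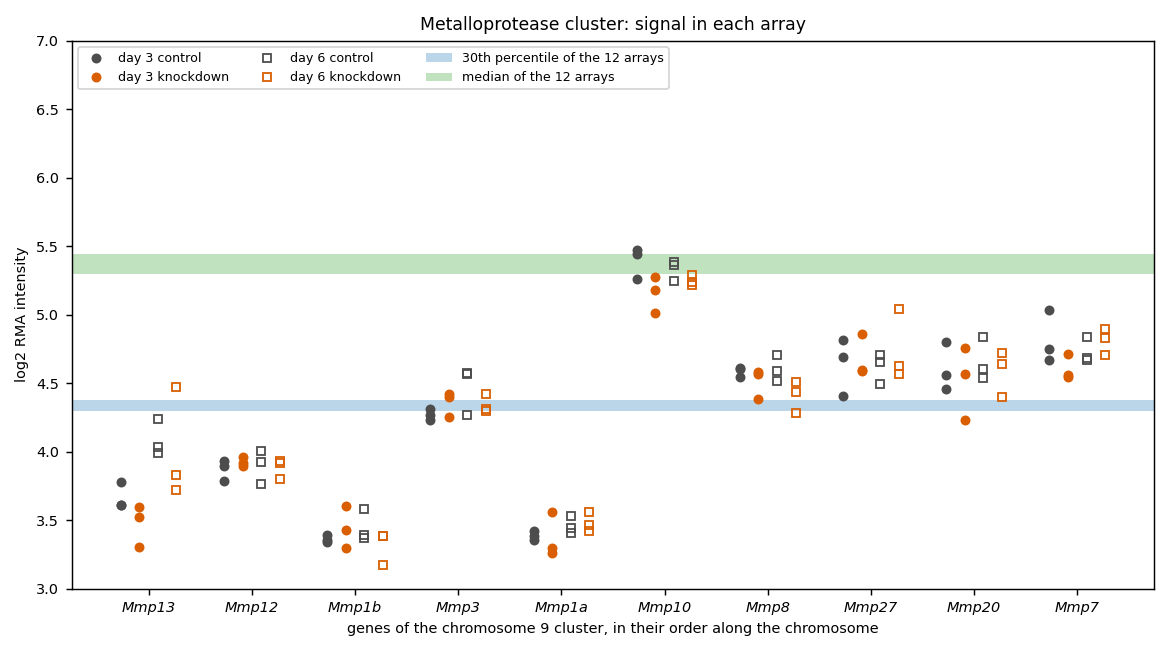
Signal of the 10 genes of the chromosome 9 metalloprotease cluster in each of the 12 arrays (y axis: log2 RMA intensity; x axis: genes in chromosomal order; circles: day 3, squares: day 6; grey: control, orange: knockdown). The blue and green bands are the 30th percentile (4.30 to 4.38) and the median (5.30 to 5.44) of the arrays; points of Mmp13, Mmp12, Mmp1b and Mmp1a lie below the blue band on nearly every array, and only Mmp10 reaches the green one.

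The promoters of all 10 cluster genes are shown, whether or not they hold a motif, followed by those of the 3 inhibitors with signal above the median on every array. RefSeq promoter windows (GRCm38.p6, 250 bases before to 50 after the start) were given for 34 of the 49 genes, with 12 windows for the cluster because Mmp12 and Mmp7 have 2 starts. The core of an AP-1 site was searched as TGAGTCA on both strands. The letters TATAAA were searched in the same way for the promoter element that bears their name, and GGGCGG as a GC box; none of these motifs overlaps another in its letters. Printed are the 120 bases just before the start on the gene's strand, 5′ to 3′, with matches in capitals; TGACTCA and CCGCCC are the AP-1 and GC letters on the other strand.
Mmp13 (chr9:7272394-7272513, plus strand): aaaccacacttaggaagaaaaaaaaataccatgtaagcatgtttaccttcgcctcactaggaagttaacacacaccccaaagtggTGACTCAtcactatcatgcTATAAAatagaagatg
Mmp12, upstream start (chr9:7344277-7344396, plus strand): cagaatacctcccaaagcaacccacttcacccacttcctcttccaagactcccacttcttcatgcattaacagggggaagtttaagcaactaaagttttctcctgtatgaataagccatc
Mmp12, downstream start (chr9:7347254-7347373, plus strand): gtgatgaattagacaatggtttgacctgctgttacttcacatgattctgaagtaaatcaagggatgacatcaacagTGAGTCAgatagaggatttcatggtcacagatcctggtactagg
Mmp1b (chr9:7388027-7388146, minus strand): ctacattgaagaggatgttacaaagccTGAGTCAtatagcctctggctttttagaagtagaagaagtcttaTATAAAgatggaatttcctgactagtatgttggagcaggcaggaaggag
Mmp3 (chr9:7445702-7445821, plus strand): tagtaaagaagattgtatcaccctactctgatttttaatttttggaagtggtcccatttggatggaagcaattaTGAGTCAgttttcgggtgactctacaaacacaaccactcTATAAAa
Mmp1a (chr9:7464021-7464140, plus strand): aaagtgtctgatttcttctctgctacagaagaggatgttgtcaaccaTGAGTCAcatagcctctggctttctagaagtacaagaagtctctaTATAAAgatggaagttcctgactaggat
Mmp10 (chr9:7502222-7502341, plus strand): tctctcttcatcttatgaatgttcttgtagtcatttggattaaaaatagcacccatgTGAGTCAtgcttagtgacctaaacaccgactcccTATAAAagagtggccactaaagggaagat
Mmp8 (chr9:7558309-7558428, plus strand): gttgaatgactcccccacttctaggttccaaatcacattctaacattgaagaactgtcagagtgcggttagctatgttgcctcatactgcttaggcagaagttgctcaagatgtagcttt
Mmp27 (chr9:7571276-7571395, plus strand): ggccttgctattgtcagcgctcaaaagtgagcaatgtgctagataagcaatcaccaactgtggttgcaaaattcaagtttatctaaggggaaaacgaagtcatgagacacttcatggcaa
Mmp20 (chr9:7628111-7628230, plus strand): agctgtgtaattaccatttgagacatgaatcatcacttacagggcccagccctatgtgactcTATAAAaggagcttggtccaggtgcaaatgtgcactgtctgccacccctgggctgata
Mmp7, upstream start (chr9:7691970-7692089, plus strand): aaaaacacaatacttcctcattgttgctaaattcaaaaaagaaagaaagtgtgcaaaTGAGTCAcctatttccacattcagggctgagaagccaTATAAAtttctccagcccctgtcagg
Mmp7, downstream start (chr9:7692221-7692340, plus strand): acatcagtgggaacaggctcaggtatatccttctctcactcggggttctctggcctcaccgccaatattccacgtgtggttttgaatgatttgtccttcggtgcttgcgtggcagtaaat
Timp1 (chrX:20870046-20870165, plus strand): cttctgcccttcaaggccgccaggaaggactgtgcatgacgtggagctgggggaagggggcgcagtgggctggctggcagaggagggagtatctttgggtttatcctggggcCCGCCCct
Timp2 (chr11:118355412-118355531, minus strand): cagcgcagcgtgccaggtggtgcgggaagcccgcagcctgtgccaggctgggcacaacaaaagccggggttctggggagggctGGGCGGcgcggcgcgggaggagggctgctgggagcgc
Timp3 (chr10:86300292-86300411, plus strand): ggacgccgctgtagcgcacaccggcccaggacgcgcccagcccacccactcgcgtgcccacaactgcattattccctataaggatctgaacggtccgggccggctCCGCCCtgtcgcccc

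In the full windows the AP-1 letters were found for 7 of the 34 genes (20.6%), namely Mmp3, Mmp7, Mmp10, Mmp12, Mmp13, Mmp1a and Mmp1b, all of this cluster, against 5.2% of the 32851 windows of all genes. Mmp8, Mmp20 and Mmp27 of the same cluster had no such match, nor had the upstream window of Mmp12 or the downstream window of Mmp7. TATAAA was found for 12 (35.3%, against 13.6%) and GGGCGG for 20 (58.8%, against 35.7%). A match describes letters in a window and says nothing of binding.

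From day 3 to day 6 of factor expression, members both rose and fell. In control, 8 of 44 members rose (18.2%; 6.99% of all 17860 genes rose) and 2 fell (4.55%; 10.6% of all genes fell). In knockdown, 5 rose (11.4%; 7.46% of all genes) and 4 fell (9.09%; 10.5% of all genes). The median log2 change of the 44 was 0.057 in control and 0.059 in knockdown, against 0.010 and 0.009 over all genes. In fits that left out arrays it ran from 0.034 to 0.083 in control and from 0.016 to 0.064 in knockdown. Replicates 1, 2 and 3 taken alone gave 0.093, 0.057 and -0.002 in control and 0.06, -0.02 and 0.025 in knockdown. The 2 time comparisons share no array, but the fit gave both the same estimate of each gene's spread. Same-numbered control and knockdown arrays of a day also deviated together (r = 0.137 to 0.373). Called in both with the same sign were 7 members, which is 70% of the 10 called in control and 77.8% of the 9 in knockdown; over all genes the shares were 66.3% and 65.1%. The counts depended on replicates. With both replicate 2 arrays left out, 2 members rose and 2 fell in control (4.55% each), against 2.55% and 3.48% of all genes, and 2 rose and 3 fell in knockdown (4.55% and 6.82%), against 3.42% and 4.51%. With both replicate 3 arrays left out, 4 rose and 1 fell in control (9.09% and 2.27%), against 2.78% and 3.22% of all genes, and 3 rose and 2 fell in knockdown (6.82% and 4.55%), against 2.83% and 3.15%.

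**Figure D2:**
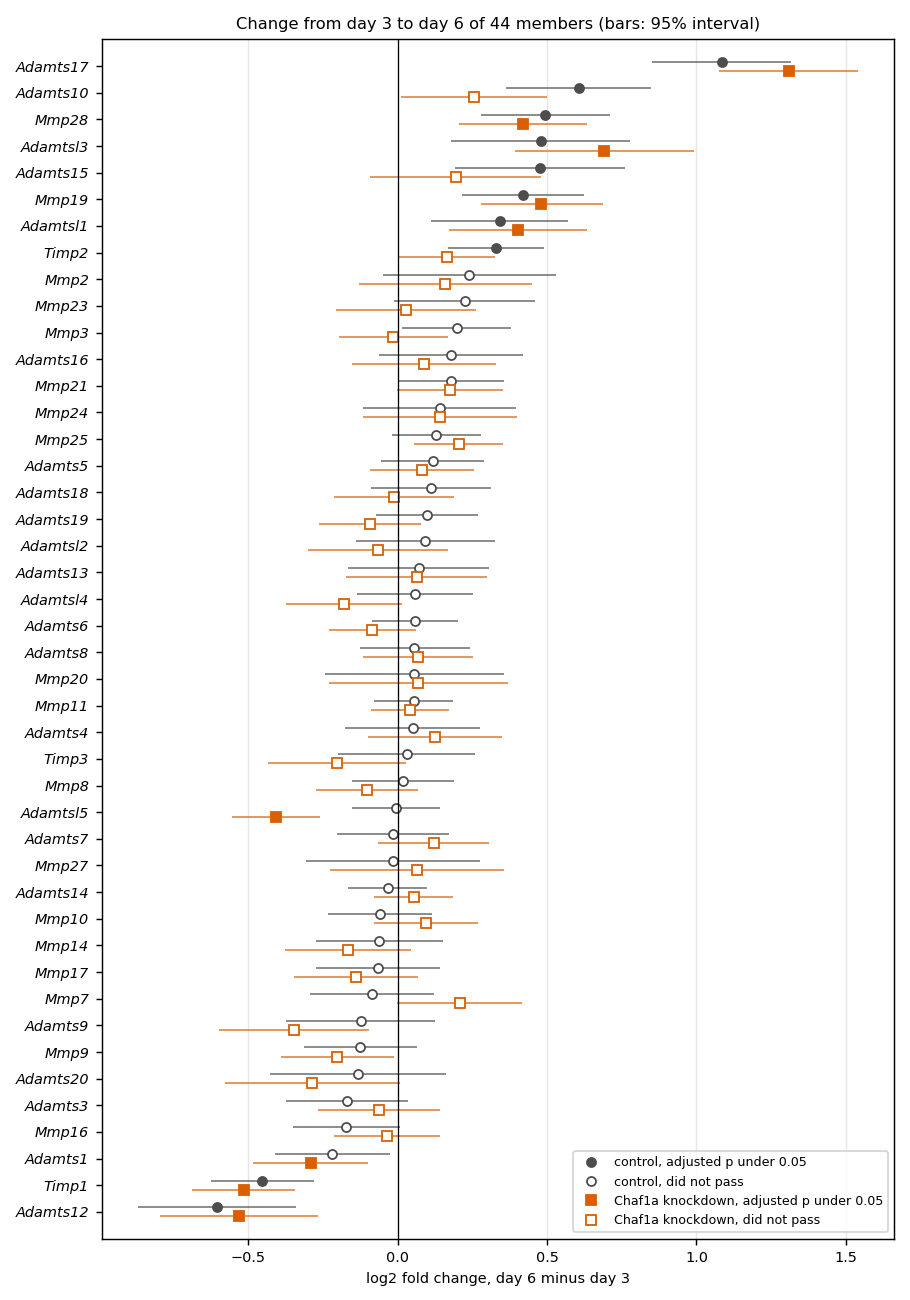
Change from day 3 to day 6 of the 44 tested members (x axis: log2 fold change, day 6 minus day 3; y axis: genes ordered by the control value; grey circles: control, orange squares: knockdown; bars: 95% interval; filled: adjusted p under 0.05). Adamts17 stands at the top with 1.09 in control and 1.31 in knockdown, Timp1 and Adamts12 at the bottom lie below 0 in both, and Adamtsl5 lies at -0.006 in control and at -0.41 in knockdown.

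Of the Timp genes, Timp1 fell in both conditions and Timp2 rose in control. Timp1, a secreted inhibitor with growth-promoting activity, read 10.56, 10.81 and 10.56 in day 3 control, 10.58, 10.77 and 10.69 in day 3 knockdown, 10.19, 10.14 and 10.24 in day 6 control and 10.14, 10.12 and 10.23 in day 6 knockdown. Every day 6 array lay below every day 3 array. Timp1 fell by 0.45 in control (1.37-fold, SE 0.079, adjusted p = 0.00227) and by 0.52 in knockdown (1.43-fold, SE 0.079, adjusted p = 0.000908), and passed in all 9 fits that left out arrays and 9 with other settings, in each condition.

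Timp2, which inhibits metalloproteases and also helps Mmp14 to activate pro-Mmp2, read 11.20, 11.20 and 11.14 in day 3 control, 11.17, 11.27 and 11.19 in day 3 knockdown, 11.67, 11.45 and 11.41 in day 6 control and 11.44, 11.37 and 11.30 in day 6 knockdown. In both conditions the day 6 arrays were above the day 3 arrays. Timp2 rose by 0.33 in control (1.25-fold, SE 0.074, adjusted p = 0.0089), a call lost without replicate 1 (0.26), replicate 2 (0.37) or replicate 3 (0.36) of both groups. The difference of 0.16 in knockdown did not pass (adjusted p = 0.151), and the difference between the conditions was -0.16 (95% interval -0.39 to 0.062, adjusted p = 0.990). Timp3, which is held in the matrix and also inhibits Adamts enzymes, read 11.07, 11.16 and 11.12 in day 3 control, 11.17, 11.50 and 11.24 in day 3 knockdown, 11.33, 11.07 and 11.03 in day 6 control and 11.25, 11.11 and 10.94 in day 6 knockdown. Its time differences of 0.030 and -0.20 did not pass, and with each array centred on its median the first was -0.013.

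The gelatinases, collagenases, stromelysins and membrane-type enzymes held no member that passed in either time comparison, with 11 of their genes tested. Mmp2 read 10.35, 10.78 and 10.69 in day 3 control, 10.35, 10.79 and 10.64 in day 3 knockdown, 10.93, 10.91 and 10.70 in day 6 control and 10.88, 10.82 and 10.57 in day 6 knockdown. Replicate 1 was the lowest of both day 3 groups and the highest of both day 6 groups. Mmp2 differed by 0.24 in control (95% interval -0.052 to 0.53, adjusted p = 0.259) and by 0.16 in knockdown (adjusted p = 0.469). Mmp14 read 10.74, 11.12 and 11.05, then 10.82, 11.12 and 11.06 at day 3 in control and knockdown, and 10.86, 10.93 and 10.93, then 10.84, 10.80 and 10.86 at day 6. Its time differences were -0.062 and -0.17 (adjusted p = 0.731 and 0.280).

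Among the other metalloproteases, 2 of 7 rose, and both did so in each condition. Mmp28 (epilysin), a secreted enzyme activated inside the cell by furin-like proteases, read 9.04, 8.89 and 8.997 in day 3 control, 9.11, 8.93 and 8.86 in day 3 knockdown, 9.69, 9.38 and 9.34 in day 6 control and 9.49, 9.36 and 9.30 in day 6 knockdown. Mmp19, which cuts basement membrane proteins, read 6.43, 6.28 and 6.30, then 6.18, 6.37 and 6.17 at day 3, and 6.78, 6.72 and 6.77, then 6.94, 6.68 and 6.54 at day 6. For both genes every day 6 array was above every day 3 array.

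Mmp28 rose by 0.49 in control (1.41-fold, SE 0.099, adjusted p = 0.00491) and by 0.42 in knockdown (1.34-fold, SE 0.099, adjusted p = 0.0116). The control call was lost on leaving out both replicate 2 arrays (0.50). The knockdown call was lost without day 3 knockdown replicate 3 (0.36), both replicate 2 arrays (0.41) or both replicate 3 arrays (0.41). Mmp19 rose by 0.42 in control (1.34-fold, SE 0.094, adjusted p = 0.00885), which was lost without replicate 2 (0.41) or 3 (0.40), and by 0.48 in knockdown (1.40-fold, SE 0.094, adjusted p = 0.00391), which was not lost in any fit run. The other 5 genes, Mmp11, Mmp20, Mmp21, Mmp23 and Mmp27, did not pass, with control differences from -0.016 to 0.22.

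Of the 18 Adamts genes tested, Adamts17 had the largest change. Adamts17 and Adamts10 are related proteases tied to the fibrillin microfibrils of connective tissue. Adamts17 read 6.52, 6.50 and 6.64 in day 3 control, 6.45, 6.27 and 6.42 in day 3 knockdown, 7.45, 7.81 and 7.67 in day 6 control and 7.64, 7.91 and 7.53 in day 6 knockdown. The lowest day 6 array, 7.45, was well above the highest day 3 array, 6.64. Adamts17 rose by 1.09 in control (2.12-fold, SE 0.11, adjusted p = 4.87e-05) and by 1.31 in knockdown (2.48-fold, SE 0.11, adjusted p = 1.11e-05), and passed in every fit that left out arrays (0.97 to 1.18 in control and 1.15 to 1.41 in knockdown).

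Adamts10 read 7.70, 7.51 and 7.77 in day 3 control, 7.77, 8.11 and 7.87 in day 3 knockdown, 8.26, 8.40 and 8.15 in day 6 control and 8.09, 8.37 and 8.04 in day 6 knockdown. The control groups did not overlap, while in knockdown day 3 replicate 2 was above 2 of the day 6 arrays. Adamts10 rose by 0.61 in control (1.52-fold, SE 0.11, adjusted p = 0.00308). The 0.25 in knockdown did not pass (adjusted p = 0.145), and the conditions differed by -0.35 (95% interval -0.70 to -0.007, adjusted p = 0.972). Adamts12, a protease that cuts cartilage oligomeric matrix protein, read 8.35, 8.84 and 8.50 in day 3 control, 8.24, 8.60 and 8.35 in day 3 knockdown, 7.96, 8.04 and 7.87 in day 6 control and 7.77, 7.98 and 7.85 in day 6 knockdown. The day 6 arrays lay below the day 3 arrays without overlap. It fell by 0.61 in control (1.52-fold, SE 0.12, adjusted p = 0.0049) and by 0.53 in knockdown (1.45-fold, SE 0.12, adjusted p = 0.00967); without replicate 3 of both groups these were -0.59 and -0.55 and did not pass.

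The proteoglycanases, which cut aggrecan and versican, held 7 genes. Adamts15 read 5.57, 5.30 and 5.58 in day 3 control, 5.61, 5.62 and 5.46 in day 3 knockdown, 6.15, 5.96 and 5.78 in day 6 control and 6.07, 5.60 and 5.60 in day 6 knockdown, and reached the array median on 11 of the 12 arrays. It rose in control by 0.48 (1.39-fold, SE 0.13, adjusted p = 0.0259), a call lost without day 3 control replicate 2 (0.38), day 6 control replicate 1 (0.38) or 2 (0.48), or replicate 2 (0.39) or 3 (0.62) of both groups; its 0.19 in knockdown did not pass, and the conditions differed by -0.28 (adjusted p = 0.990). Adamts1 read 8.82, 8.92 and 8.92, then 8.70, 8.90 and 8.82 at day 3, and 8.60, 8.66 and 8.73, then 8.33, 8.52 and 8.69 at day 6. It fell in knockdown by 0.29 (1.22-fold, SE 0.089, adjusted p = 0.0388); in control it differed by -0.22 (adjusted p = 0.116), and the conditions differed by -0.073 (adjusted p = 0.991). The Adamts1 call was lost in 7 of the 9 fits that left out arrays (log2 -0.37 to -0.20 in those), the exceptions being the fits without day 3 knockdown replicate 1 and without day 6 knockdown replicate 3. Adamts4, Adamts5, Adamts8, Adamts9 and Adamts20 did not pass in either condition, nor did the procollagen-processing Adamts3 and Adamts14.

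**Figure D3:**
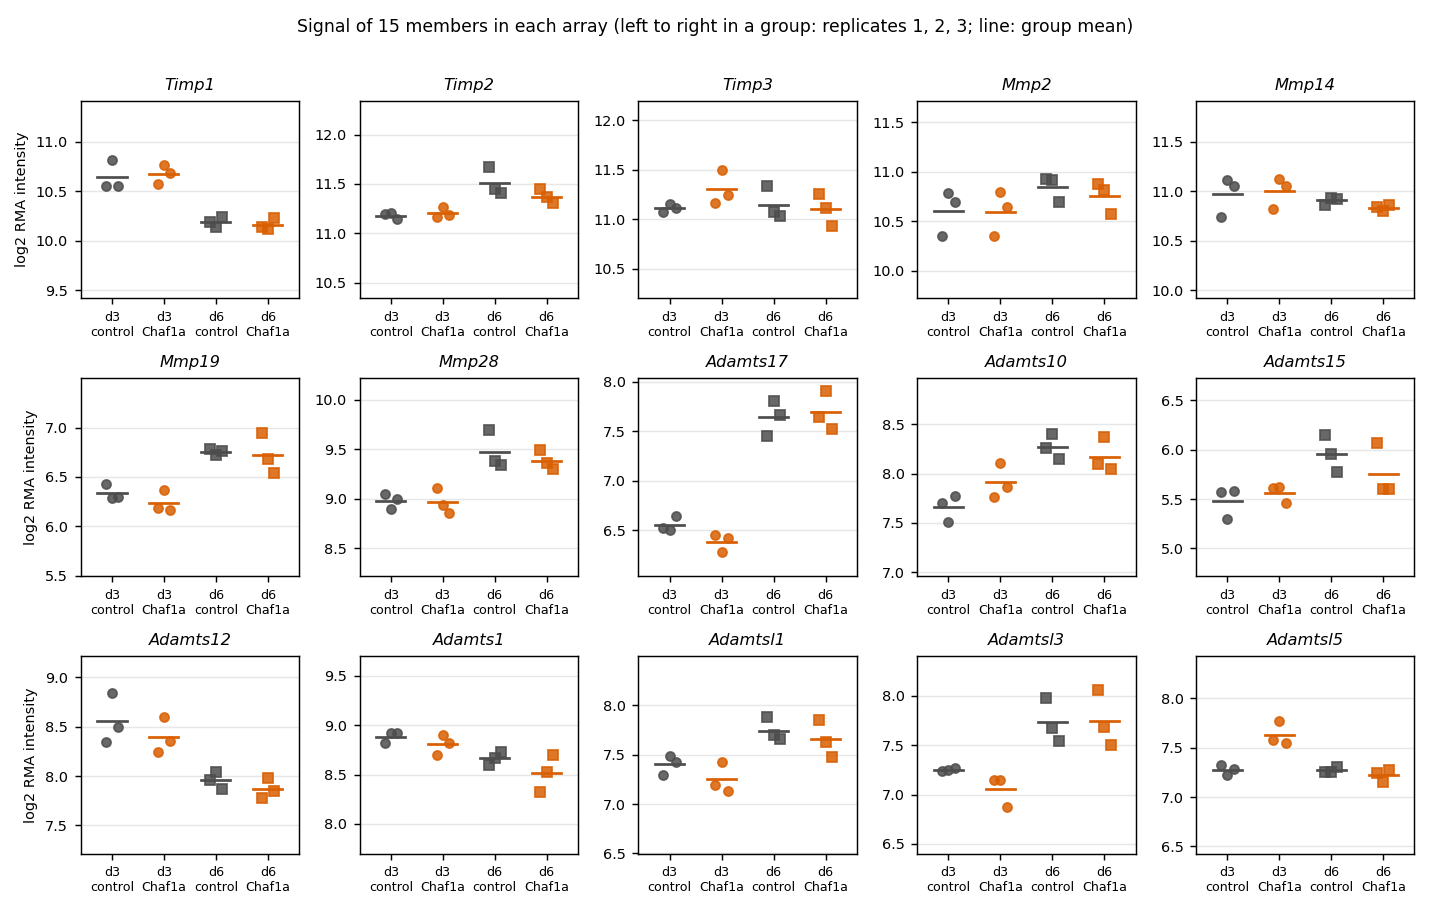
Signal of 15 named members in each array (y axis: log2 RMA intensity, 2 log2 units in each panel; x axis: day 3 and day 6, control in grey and knockdown, marked Chaf1a, in orange; points from left to right: replicates 1, 2 and 3; line: group mean). Timp1 and Adamts12 sit lower at day 6, Adamts17 sits higher at day 6 in both conditions, and the 3 day 3 knockdown arrays of Adamtsl5, at 7.55 to 7.77, sit above the other 9.

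Of the 5 Adamts-like genes, Adamtsl1 and Adamtsl3, the punctins, rose in both conditions. Adamtsl3 read 7.23, 7.25 and 7.27 in day 3 control, 7.14, 7.15 and 6.88 in day 3 knockdown, 7.97, 7.67 and 7.54 in day 6 control and 8.06, 7.68 and 7.50 in day 6 knockdown. Adamtsl1 read 7.29, 7.49 and 7.42, then 7.20, 7.43 and 7.13 at day 3, and 7.88, 7.70 and 7.65, then 7.85, 7.63 and 7.48 at day 6. For both, all day 6 arrays lay above the day 3 arrays of the same condition.

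Adamtsl3 rose by 0.48 in control (1.39-fold, SE 0.14, adjusted p = 0.0312) and by 0.69 in knockdown (1.62-fold, SE 0.14, adjusted p = 0.00439). Leaving out arrays ended its control call in 7 of 9 fits (0.35 to 0.51), but not when day 6 control replicate 3, or both replicate 3 arrays, were left out, and its knockdown call only without replicate 2 of both groups (0.77). Adamtsl1 rose by 0.34 in control (1.27-fold, SE 0.11, adjusted p = 0.0434) and by 0.40 in knockdown (1.32-fold, SE 0.11, adjusted p = 0.0202). Its control call was lost in all 9 fits that left out arrays (0.22 to 0.41) and its knockdown call in 7 of 9 (0.28 to 0.50), with the exceptions of the fits without day 3 knockdown replicate 2 and without day 6 knockdown replicate 3.

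Adamtsl5, an Adamts-like protein that binds fibrillin, fell from day 3 to day 6 in knockdown. It read 7.32, 7.23 and 7.28 in day 3 control, 7.58, 7.77 and 7.55 in day 3 knockdown, 7.25, 7.25 and 7.30 in day 6 control and 7.24, 7.16 and 7.27 in day 6 knockdown. The 3 day 3 knockdown arrays stood above the other 9, which spanned 7.16 to 7.32. The fall in knockdown was 0.41 on the log2 scale (1.33-fold, SE 0.067, adjusted p = 0.00142) and passed in every fit run, whereas in control the difference was -0.006 (adjusted p = 0.966). The difference between the conditions was -0.40 (95% interval -0.61 to -0.19, adjusted p = 0.887) and did not pass over all genes. The fibrillin- and matrix-binding Adamtsl2 and Adamtsl4 did not pass in either condition.

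Markers of other cell types moved with time. Marker sums given here are the log2 of summed linear intensities, so the brightest genes weigh most. The sum of 10 macrophage and leukocyte markers was 9.56 to 9.68 in day 3 control, 9.77 to 9.83 in day 3 knockdown, 8.89 to 8.99 in day 6 control and 8.93 to 9.03 in day 6 knockdown. Cd68 was the brightest of that list, with a mean of 8.385 over the 12 arrays against 5.718 for Fcer1g. Of the 9 markers of the list past the filter, Cd68 fell by 1.19 in control and 1.23 in knockdown (adjusted p = 9.56e-07 and 5.39e-07). Itgam fell by 0.50 in knockdown (adjusted p = 0.00598) and differed by -0.32 in control (adjusted p = 0.0549). Lyz2 differed by -0.86 and -0.54 (adjusted p = 0.0769 and 0.271), Csf1r was below the array median on all 12 arrays, and Ptprc, the pan-leukocyte marker, did not pass the filter.

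Of 7 endothelial markers tested, Kdr rose by 1.00 and 1.25 (adjusted p = 0.000241 and 3.91e-05) and Cdh5 by 0.40 and 0.51 (adjusted p = 0.0207 and 0.00535). The other 5 did not pass in either condition. Of these, Tie1, Cldn5 and Esam were below the array median on every array, and Pecam1 differed by 0 and 0.023. The sum of the list was 10.27 to 10.39 in day 3 control, 10.34 to 10.44 in day 3 knockdown, 10.18 to 10.38 in day 6 control and 10.32 to 10.38 in day 6 knockdown. Tek was the brightest of that list, with a mean of 9.995 over the arrays against 6.374 for Kdr. Tek went the other way, with differences of -0.157 and -0.185 that did not pass (adjusted p = 0.204 and 0.129). Of 8 cartilage and bone markers, Col2a1 fell by 0.64 and 0.77 (adjusted p = 0.00018 and 3.42e-05), Col10a1 rose by 1.06 in control (adjusted p = 0.0377) and Sox9 rose by 0.39 in knockdown (adjusted p = 0.0336). Of 7 keratinocyte markers, Krt10 rose by 0.21 in knockdown (adjusted p = 0.0354). The 6 epithelial and pluripotency markers summed to 8.15 to 8.30 in day 3 control, 8.18 to 8.27 in day 3 knockdown, 8.58 to 8.72 in day 6 control and 9.47 to 9.71 in day 6 knockdown; Cdh1 rose in control, and 5 of the 6 rose in knockdown. The 10 fibroblast markers summed to 14.41 to 14.47, 14.34 to 14.46, 14.46 to 14.57 and 14.42 to 14.52 in the same order of groups, and 1 of them, Pdgfrb, rose in each condition. Vim and Fn1 were the brightest of the fibroblast markers, with means of 13.317 and 12.344 over the arrays. The part of the markers of any of these cell types in the members' time changes was not tested.

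The knockdown comparisons called no member at either day. At day 3 no gene of all 17860 passed (0%), and at an unadjusted limma p under 0.05 there were 4 of 44 members (9.09%) against 6.01% of all genes. Groups did not overlap for 7 of the 44 (15.9%) against 10.8% of all genes: Adamtsl5 and Timp3 were higher in knockdown, and Adamts5, Adamts14, Adamts17, Adamtsl3 and Mmp25 lower. The 3 higher members with the smallest p, none of which passed, were Adamtsl5 at 0.35 (95% interval 0.21 to 0.50, adjusted p = 0.545), Adamts10 at 0.25 (adjusted p = 0.803) and Timp3 at 0.19 (adjusted p = 0.867). No gene had an adjusted p below 0.545 in that comparison. The adjustment can give several genes the same value, so this does not make Adamtsl5 the top gene. The day 3 knockdown arrays of Adamtsl5 are those that enter its time comparison too.

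The 3 lower members with the smallest p at day 3 were Mmp10 at -0.24 (adjusted p = 0.726), Mmp7 at -0.21 (adjusted p = 0.815) and Adamts5 at -0.17 (adjusted p = 0.836). Mmp10 read 5.44, 5.26 and 5.47 in control and 5.01, 5.28 and 5.18 in knockdown, near or under the array median. Mmp7 read 4.75, 4.67 and 5.04 in control and 4.54, 4.71 and 4.56 in knockdown, and its second, dimmer probe set differed by -0.01. Adamts5, the main aggrecan-cutting protease of mouse cartilage, read 8.70, 8.81 and 8.80 in control and 8.65, 8.64 and 8.52 in knockdown, without overlap. At day 3 the sum of the macrophage markers, of which Cd68 was the brightest, was higher in knockdown (above). Cd68 itself differed by 0.19 (adjusted p = 0.74). The 8 cartilage and bone markers summed to 9.50 to 9.63 in control and 9.40 to 9.41 in knockdown. The part of either list was not tested.

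At day 6, 7 genes of the whole array were called (0.0392%), all 7 higher in knockdown, and none was a member. That count was 3, 2 and 4 without day 6 control replicate 1, 2 and 3, 2 without both replicate 1 arrays, 0 without both replicate 2 or both replicate 3 arrays, and 2 with only the groups compared. At an unadjusted limma p under 0.05 there were 3 of 44 members (6.82%) against 4.44% of all genes, and the groups did not overlap for 4 (9.09%) against 10.6% of all genes. Most member estimates were below 0: the 44 had a median of -0.077 with 10 positive, against a median of -0.008 with 8244 of 17860 positive over all genes. Among the marker lists, 1 of 10 fibroblast markers was positive (median -0.058), 1 of 8 cartilage and bone markers (-0.103) and 2 of 9 macrophage markers (-0.044). For keratinocyte markers it was 3 of 7 (-0.002), and for endothelial markers 5 of 7 (0.035). For epithelial and pluripotency markers it was 5 of 6 (0.89), and for the 42 partner genes described below it was 17 (-0.026). A lean below 0 was thus also seen in the fibroblast, cartilage and bone, and macrophage lists, but not in every list. In fits that left out arrays the members' median stayed between -0.088 and -0.050, with 8 to 11 positive. At day 3 the median was -0.012 with 18 positive, against -0.010 over all genes.

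**Figure D4:**
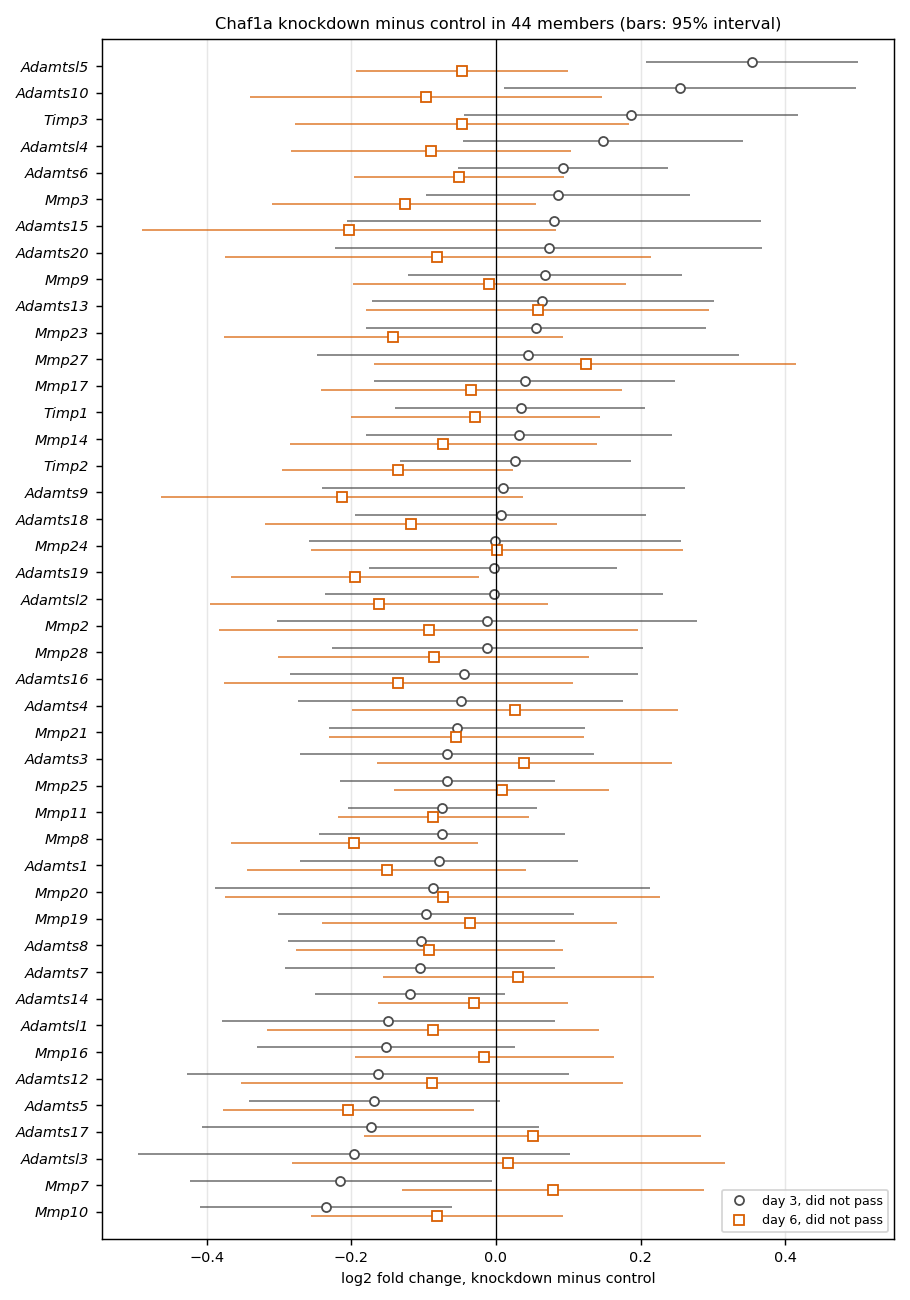
Knockdown minus control for the 44 tested members (x axis: log2 fold change; y axis: genes ordered by the day 3 value; grey circles: day 3, orange squares: day 6; bars: 95% interval). No point passes an adjusted p of 0.05; Adamtsl5 has the highest day 3 value, 0.35, and 34 of the 44 day 6 points lie below 0.

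The 4 members whose day 6 groups did not overlap were all lower in knockdown: Adamts5, Adamts19, Mmp8 and Mmp14. Adamts5 read 8.81, 8.81 and 9.04 in day 6 control and 8.61, 8.64 and 8.80 in day 6 knockdown, a difference of -0.20 (95% interval -0.38 to -0.030, adjusted p = 0.999). The day 6 groups were barely apart, with a lowest control array of 8.808 and a highest knockdown array of 8.802. Adamts5 was also lower without overlap at day 3, and neither difference passed. Groups did not overlap for 10.8% of all genes at day 3 and 10.6% at day 6. The share of all genes without overlap at both days was not computed. The neutrophil collagenase Mmp8, near the 30th percentile, differed by -0.20 and Adamts19, below the median, by -0.19 (adjusted p = 0.999 for each). Mmp14 differed by -0.073, Mmp2 by -0.093, Timp1 by -0.029, Timp2 by -0.14 and Timp3 by -0.047, with the same adjusted p. The 3 higher members with the smallest p were Mmp27 at 0.12, Mmp7 at 0.079 and Adamts13 at 0.058, all below the array median.

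The median 95% interval of a member reached 0.21 log2 units to either side of its estimate at each day, which is the precision that 3 arrays a group gave before adjustment over all genes. At day 6 the epithelial and pluripotency markers summed to 9.47 to 9.71 in knockdown and 8.58 to 8.72 in control, and the fibroblast markers to 14.42 to 14.52 and 14.46 to 14.57. Their part in the members' lower values was not tested. The knockdown effect at day 6 minus that at day 3 was past the threshold for no member and no gene (0%); at an unadjusted limma p under 0.05 there were 2 of 44 members, Adamtsl5 and Adamts10 (4.55%), against 5.10% of all genes.

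Genes that activate, inhibit or work beside these enzymes were taken from a list of 44, of which 42 had a probe set and all 42 passed the filter. In control 4 rose and 8 fell, in knockdown 4 rose and 10 fell, and none passed in either knockdown comparison. Of all 17860 genes, 6.99% rose and 10.6% fell in control, and 7.46% rose and 10.5% fell in knockdown. The lists within the partner list are short, and a difference of any of them from these shares was not tested. Of 13 activators, none rose and 4 fell in control, and none rose and 5 fell in knockdown. Plaur, the receptor that concentrates the plasmin-generating protease urokinase on the cell surface, fell by 1.13 in control (SE 0.097, adjusted p = 1.79e-05) and by 0.90 in knockdown (adjusted p = 7.44e-05). The collagen-cutting cathepsin Ctsk fell by 0.74 and 0.75 (adjusted p = 0.0228 and 0.0207).

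Of 11 genes listed as inhibitors, 2 rose in control and 3 in knockdown, and none fell. The list includes the testicans Spock1, Spock2 and Spock3, whose action as inhibitors was not tested. Reck, a membrane-anchored inhibitor of metalloproteases, rose by 0.91 in control (SE 0.14, adjusted p = 0.00128) and 0.59 in knockdown (adjusted p = 0.0142). The proteoglycan Spock2, a testican, rose by 1.11 and 1.25 (adjusted p = 9.16e-05 and 3.27e-05), and the broad protease trap A2m rose by 0.23 in knockdown (adjusted p = 0.0248). The list for procollagen processing held 8 genes, among them Lrp1, an endocytic receptor and not a processing enzyme. Of the 8, 2 rose and 2 fell in control, and 1 rose and 2 fell in knockdown. Pcolce, which speeds removal of the procollagen C-propeptide, rose by 0.80 and 0.50 (adjusted p = 0.00015 and 0.00267), and Bmp1, the protease it assists, rose by 0.24 in control (adjusted p = 0.0132). Tll1, a Bmp1-like protease, fell by 1.24 and 1.44 (adjusted p = 0.000166 and 4.14e-05), and Pcolce2, the relative of Pcolce, fell by 0.55 and 0.50 (adjusted p = 0.000528 and 0.000887). Of 10 membrane-anchored Adam family genes, none rose. In control 2 fell and in knockdown 3, among them Adam19 by 0.63 and 0.67 (adjusted p = 0.00115 and 0.000733).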

How the data were processed

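For each of 12 samples, 100 ng of RNA was biotin-labelled, per the labels' protocols, which name total RNA in the extraction and polyA RNA as the molecule. The values the authors deposited are linear intensities. The submitters' processing notes list RMA and, with version 1.3.0.187, Affymetrix Expression Console; log2 was taken here. The genome build of the array design is not given in the sources used here. RMA equalises array distributions, so a shift shared by all genes would not show. Of 41345 probe sets, 23521 named 1 gene, 1814 several and 16010 none; the last 2 kinds were not used. Precision is limited by the number of arrays, whose median intensities ran from 39.5 to 43.3.

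The fits used limma 3.58.1 under R 4.3.3 (1 mean per group over 12 arrays, 8 residual and 4.37 prior degrees of freedom, two-sided, Benjamini-Hochberg over 17860 genes, threshold 0.05), after the procedure was tested on simulated data; adjusted p-values in the text are limma's. Same-numbered arrays deviated together in all 12 pairs that enter a comparison (r = 0.137 to 0.373). In the other same-numbered pairs r ran from 0.001 to 0.197. The numbers come from the sample titles, and these values do not settle whether a number marks a shared culture or embryo. The main fit used no pairing. Promoter tables and plots used Python 3.11.15, pandas 2.3.3 and matplotlib 3.10.9. The members, gene lists and tests were chosen with earlier results of these data known. Named in any case were Timp1 to Timp4, Mmp2, Mmp14 and Adamtsl5. Members past the threshold were also named, up to 10 per direction in a time comparison. Where fewer passed a knockdown comparison, the 3 of a direction with the smallest p were named. Of the partner genes past the threshold, up to 4 per direction and comparison with the largest change were named. Values of Pcolce2 were given outside that rule. Members whose groups did not overlap were named after their values were seen. Alternatives were a replicate block, other filters, probe set averaging, renormalisation, an intensity trend, array weights, only the groups compared, and leaving out arrays.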

Additional observations from a re-analysis of the deposited data

How the results depend on the processing

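The replicate block, which pairs same-numbered arrays, gave 11 members called in control over time (10 without it), 9 in knockdown (9), and 0 in each knockdown comparison (0 without it), and ended no call of a named member. Over the other settings, which kept every array of the groups compared, 9 to 10 members were called over time in control and 7 to 11 in knockdown. Leaving out arrays gave 4 to 9 and 5 to 9, and 8 to 12 and 7 to 13 partner genes (12 and 14 with all arrays). No member or partner gene passed a knockdown comparison in any of these fits. Calls also ended without the low-value filter and with median centring for Adamtsl1 in control (adjusted p = 0.0511 and 0.0871), with only the groups compared for Adamtsl1 and Adamts1 in knockdown (0.0532 and 0.104), and with renewed quantile normalisation for Adamts1 (0.0933); the cause was not tested. Of 342 refits of the 19 called changes, 290 passed in the same direction and 52 did not pass, and none changed sign. Uncalled differences near 0 changed sign when arrays were left out, with ranges of -0.084 to 0.086 (Timp3), -0.175 to 0.012 (Mmp14) and -0.031 to 0.022 (Adamtsl5) over time in control and -0.023 to 0.274 (Mmp2) in knockdown. For knockdown minus control they were, at day 3, -0.014 to 0.119 (Timp1), -0.004 to 0.055 (Timp2), -0.141 to 0.108 (Mmp2) and -0.081 to 0.121 (Mmp14), and at day 6, -0.024 to 0.255 (Mmp27), -0.050 to 0.224 (Adamts13) and -0.123 to 0.046 (Timp3). Timp3 over time in control was -0.013 with median centring, which shifts every gene of an array together. The members' median was recomputed without each array in turn, a choice made after seeing the data; at day 3 it ran from -0.054 to 0.002. Genes near the 30th percentile carry little signal over background.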

Other observations

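Among members below the low-value filter, Mmp13 read 3.61, 3.78 and 3.61 in day 3 control, 3.60, 3.52 and 3.30 in day 3 knockdown, 3.99, 4.04 and 4.24 in day 6 control and 4.47, 3.83 and 3.72 in day 6 knockdown. Every day 6 array was thus above the day 3 arrays of its condition, but only 1 of the 12 values reached its array's 30th percentile, and no test was made. A second probe set was given for Adamts8, Adamts14, Mmp11 and Mmp7; over time in control the chosen and the other probe set differed from day 3 by 0.06 and 0.08 for Adamts8, -0.03 and 0.12 for Adamts14, 0.05 and 0.18 for Mmp11 and -0.09 and 0.08 for Mmp7.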
